A study of Mus musculus with 12 samples.

Results

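Minoxidil (MXD), applied at 3%, was set directly against N-CE, a cell extract of the cactus Notocactus ottonis applied at 10%, after 2 weeks (2W) of treatment. The comparison rests on the 4 arrays labelled 2W, of 12 in the whole series. Male C57BL/6J mice, 8 weeks old, were shaved, and from the following day 200 µL of MXD, N-CE or the vehicle control (VC; propylene glycol, ethanol and water) was put on the back every day. RNA of whole back skin from 6 mice went into 1 pool per group. The MXD pool and the N-CE pool were each set against the VC pool on a pair of arrays with exchanged dyes, once labelled with Cy5 and once with Cy3, and all 4 arrays of 2W were on 1 slide. The doses differ between the treatments, and MXD is 1 compound while N-CE is a mixture, so each value compares the preparations as they were applied.

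For each probe, log2 MXD over VC minus log2 N-CE over VC was taken from the arrays with the treated pools in Cy5 and, separately, from those with them in Cy3. The mean of both is called the difference here, with its SD over the 2 dye orientations. A positive value means more RNA in MXD-treated skin. The VC pool cancels in the difference, and so does the dye bias of a probe, because both treatments carry the same dye within an orientation. Each group was 1 pool, so the SD describes the measurement and not the mice, no test across mice could be made and no p-value is given. Genes are called higher or lower when the difference passed 1.5-fold in the same direction in each orientation.

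The hair follicle cycles between rest (telogen), growth (anagen) and regression. In anagen, cells of the hair matrix divide above the dermal papilla and mature into the hair shaft, built of hair keratins cross-linked by keratin-associated proteins, and into the inner root sheath, while follicular melanocytes feed pigment into the shaft. MXD opens ATP-sensitive potassium channels and is used against hair loss, and its sulfate, made by sulfotransferases in the skin, is held to be the active form. Whole back skin also holds epidermis, dermis, fat, vessels, immune cells and the striated muscle sheet beneath the skin.

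On the 4 arrays, between 62.1% and 68.1% of transcript spots were well above background in a channel, and no spot was saturated. Of 41174 probes, 23713 with 15776 gene names were well above background in all 8 readings and were compared. Of 38 markers of keratinocytes, hair follicle, melanocytes, fibroblasts, skeletal and smooth muscle, fat, endothelium, macrophages, mast cells, T cells, erythrocytes and Schwann cells, 36 were above background in all 8 readings. The melanocyte enzyme Tyr was above background in 3 readings, and the globin gene Hbb-b1 has no probe under that name.

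MXD and N-CE differed in many genes at 2W. Higher in MXD were 953 probes with 815 gene names, and lower were 1838 probes with 1596 gene names, so 4.02% and 7.75% of the probes compared. These percentages are the background for every count of list members below. Past 2-fold in each orientation were 104 probes higher and 389 lower in MXD. Across probes, the difference had a median of 0.04, with 5% of probes below -0.82 and 5% above 0.64, and the SD over the orientations had a median of 0.09. The orientations correlated with an r of 0.82 over the 23713 probes, which are not independent of each other, and 17 probes went past 1.5-fold in opposite directions.

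Most of the difference came with MXD. The mean log2 fold over VC had an SD across probes of 0.53 in MXD and 0.17 in N-CE. The orientations correlated with an r of 0.71 in MXD over VC and of -0.18 in N-CE over VC, so both orientations of N-CE over VC did not rank the probes alike, and single values of N-CE over VC are given below only beside those of MXD.

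**Figure D1:**
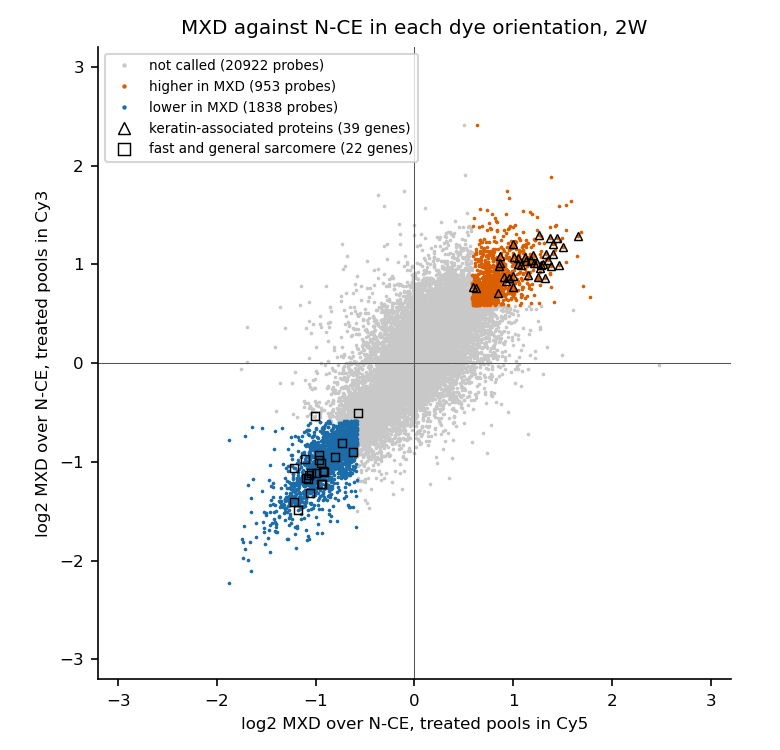
Each point is a probe, with the log2 difference of MXD and N-CE from the arrays with the treated pools in Cy5 on the x axis and in Cy3 on the y axis. The 953 probes higher in MXD and the 1838 lower in MXD are coloured. Triangles mark the 39 keratin-associated protein genes and squares the 22 sarcomere genes, which lie on opposite sides of 0.

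The same VC pool was on all 4 arrays, which gives a technical reference. With the same rule, the VC channel of the MXD arrays over that of the N-CE arrays was past 1.5-fold higher for 70 probes (0.295%) and lower for 888 (3.74%). The difference of MXD and N-CE had an r of 0.01 with it across probes. The VC channel is itself part of the difference, so this r cannot show that the difference is free of it. Krt33a and the inner root sheath keratins, below, changed when the VC channel was left out. Without the VC channel, that is MXD against N-CE in the same dye between arrays, 601 of the 953 and 1386 of the 1838 probes again passed 1.5-fold in each orientation, and 888 and 1827 kept their direction in both. After normexp background correction and loess, 421 of the 953 and 1187 of the 1838 were again called.

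**Figure D2:**
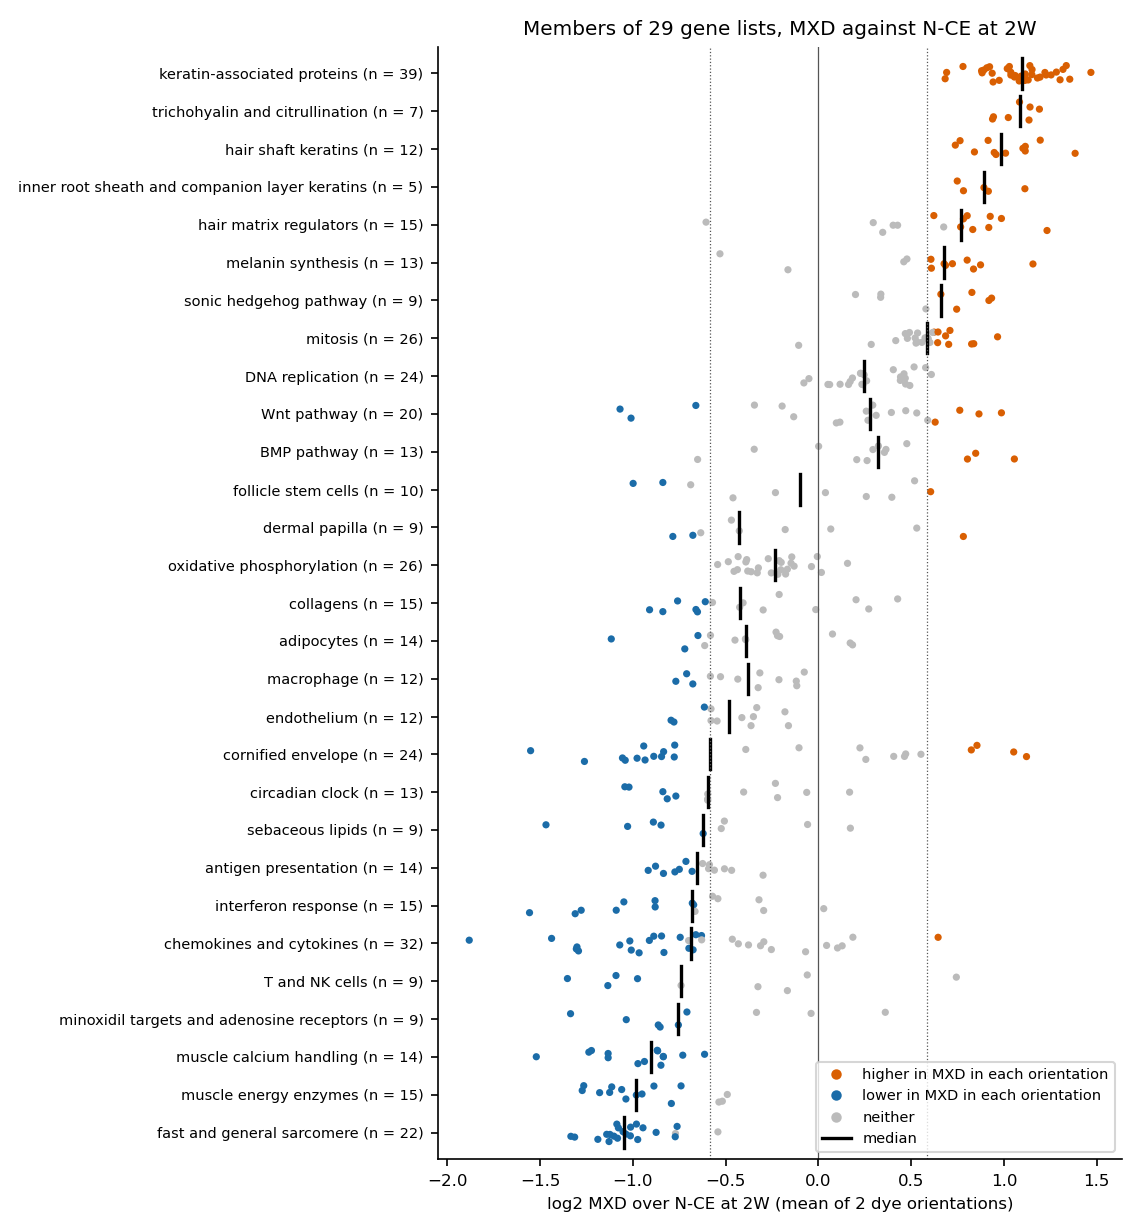
Each point is a gene, placed by its mean log2 difference of MXD and N-CE over the 2 orientations, in 29 gene lists, with a black bar at the median of each list and dotted lines at 1.5-fold. Orange genes were higher and blue genes lower in MXD in each orientation. The keratin-associated proteins (median 1.10) and the fast and general sarcomere genes (median -1.05) stand at the ends.

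Genes of the hair shaft were higher in MXD-treated than in N-CE-treated skin. All 12 measured hair shaft keratins were called higher, with a median of 0.98, a fold of 1.98, between 0.74 and 1.38. All 39 measured keratin-associated proteins were called higher, with a median of 1.10 between 0.68 and 1.47. All 7 genes of trichohyalin and citrullination were called higher too, with a median of 1.08 between 0.94 and 1.19. In bulk skin, fewer cells of a type and less RNA per cell cannot be told apart, here and in all that follows.

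Krt34 and Krt86 had the largest differences among the hair shaft keratins. Krt34 had a log2 fold over VC of 1.71 (Cy5) and 1.07 (Cy3) in MXD, and of 0.21 and -0.20 in N-CE. Both MXD values lay above both N-CE values, and the difference was 1.38 ± 0.16, or 2.61-fold. Krt86 had 1.56 and 1.07 in MXD, and 0.36 and -0.13 in N-CE, giving 1.20 ± 0.00. Krt35, of the differentiating shaft, and Krt32, a cuticle keratin, had the smallest differences, 0.74 ± 0.13 and 0.76 ± 0.03. Krt33a was the exception without the VC channel: it was 0.91 ± 0.17 in the difference but -0.57 and -0.02 directly, where its VC channel differed by -1.37 and -1.07 between the arrays.

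The keratin-associated proteins lie in clusters on several chromosomes. The 14 measured genes on chromosome 11 had a median difference of 1.11, the 18 on chromosome 16 of 1.09 and the 4 on chromosome 7 of 1.11. Krtap4-6 was the highest, with a log2 fold over VC of 1.79 and 0.82 in MXD and of 0.14 and -0.47 in N-CE, so a difference of 1.47 ± 0.26. Krtap3-1 followed with 1.35 ± 0.12, and its 3 probes ranged from 1.00 to 1.35. The lowest were Krtap5-3 with 0.68 ± 0.12 and Krtap31-2 with 0.69 ± 0.09. Without the VC channel, 37 of 39 were above 0 in both orientations. Many members are close copies of each other, so a probe may bind the RNA of more than 1 of them.

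Trichohyalin (Tchh), the structural protein of the inner root sheath and medulla, had a log2 fold over VC of 1.10 and 1.30 in MXD, and of 0.07 and 0.28 in N-CE. Its difference was 1.02 ± 0.01 and the values of the treatments did not overlap. The peptidylarginine deiminases Padi1 and Padi3, which citrullinate trichohyalin, were higher as well, with 1.13 ± 0.06 and 0.94 ± 0.02. Padi4, of the same enzyme family, had 0.94 ± 0.01. Tchhl1, a trichohyalin-like protein, had 1.19 ± 0.20, and the cuticle calcium-binding protein S100a3 had 1.14 ± 0.33. The transglutaminase Tgm3, which cross-links these proteins, had 1.08 ± 0.03.

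Of the inner root sheath and companion layer keratins, 5 of 5 measured were called higher, with a median of 0.89. Krt25 had the largest difference, 1.11 ± 0.02, followed by the companion layer keratin Krt75 with 0.92 ± 0.15. The smallest were Krt28 with 0.75 ± 0.02 and Krt27 with 0.78 ± 0.14. Here the VC channel of the MXD arrays was itself lower than that of the N-CE arrays, by a median of -0.47, and without the VC channel the list's median was 0.40.

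**Figure D3:**
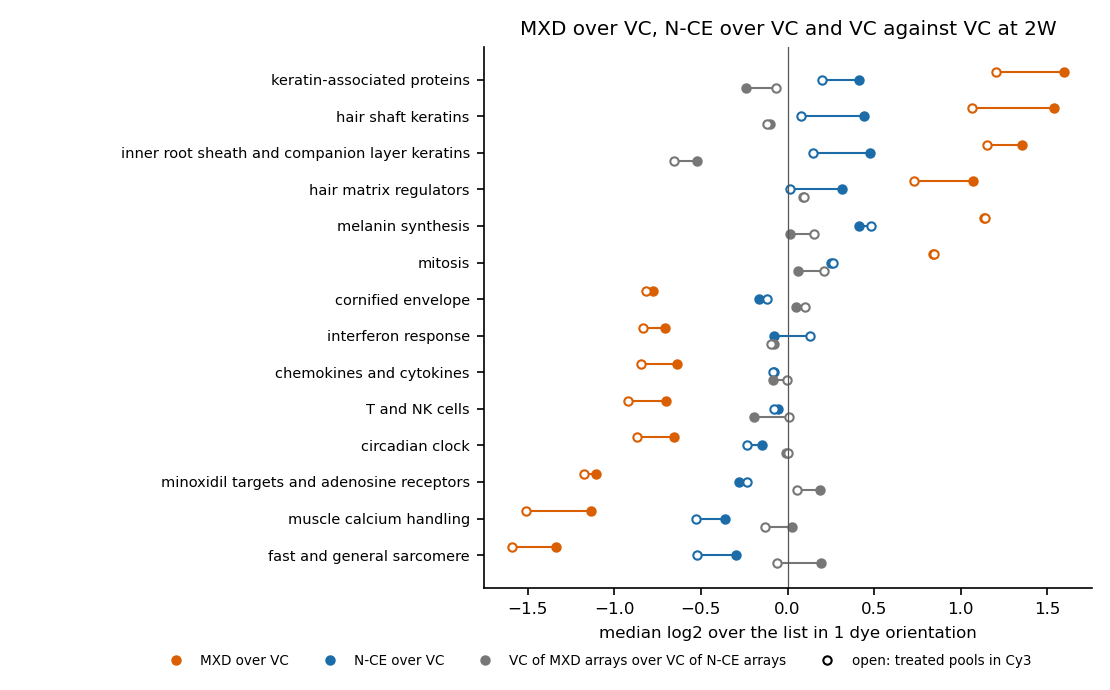
For 14 lists, the median log2 fold over the list in 1 dye orientation is plotted for MXD over VC, N-CE over VC and the VC channel of the MXD arrays over that of the N-CE arrays. Filled points are the arrays with the treated pools in Cy5 and open points those with them in Cy3. In the hair lists N-CE lies between 0 and MXD, and the VC reference is farthest from 0 in the inner root sheath list, with a median of -0.47.

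The transcription factors of the hair matrix and its precursors were higher in 9 of 15, and lower in none, with a median of 0.77. Dlx3, a homeobox factor of the matrix, had a log2 fold over VC of 1.68 and 1.04 in MXD and of 0.46 and -0.21 in N-CE, so a difference of 1.23 ± 0.02. Lef1, which carries the Wnt signal to the genes of the hair shaft, had 1.53 and 1.41 in MXD and 0.62 and 0.35 in N-CE. Its difference was 0.99 ± 0.11, and its second measured probe had 0.92. Foxn1, the factor missing in nude mice, had 0.93 ± 0.08, and Hoxc13, a regulator of hair keratins, had 0.92 ± 0.12. The lowest were Trps1 with 0.30 ± 0.15 and Bcl11b with -0.61 ± 0.05, neither of them called.

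Because Lef1 and its relatives are known to bind the letters CTTTGAT or CTTTGAA, the promoters of the hair shaft keratins were searched for them on both strands. In the RefSeq promoters of GRCm38.p6, each 250 bases before and 50 after a gene's start, 5 of the 9 hair shaft keratin promoters found hold one (55.6%), against 8.65% of all 32851 promoters. For the keratin-associated proteins it is 10 of 39 (25.6%), and 32 of 39 (82.1%) hold a TATAAA, against 13.6% of all. The upstream 250 bases of Krt34 (chr11:100041555-100041804, minus strand) and Krt33b (chr11:100029869-100030118, minus strand) are shown because, of the called members that hold the letters there, they had the largest difference by the smaller of both orientations. The letters are in capitals, on either strand.
Krt34: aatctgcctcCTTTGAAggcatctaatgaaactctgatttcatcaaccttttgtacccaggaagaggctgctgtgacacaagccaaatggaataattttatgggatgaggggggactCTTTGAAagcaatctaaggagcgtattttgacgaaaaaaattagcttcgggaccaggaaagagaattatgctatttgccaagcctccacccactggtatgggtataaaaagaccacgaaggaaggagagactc
Krt33b: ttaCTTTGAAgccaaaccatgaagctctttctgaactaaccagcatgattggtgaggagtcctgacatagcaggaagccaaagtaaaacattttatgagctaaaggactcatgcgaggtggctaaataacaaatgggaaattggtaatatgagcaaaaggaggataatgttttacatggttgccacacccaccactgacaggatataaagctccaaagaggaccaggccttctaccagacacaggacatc
Krt34 has the letters at 127 and 234 bases before its start, counted to their last base, and Krt33b at 241. A match of letters is a description of the sequence and not evidence of binding.

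Signals of the growing follicle differed in part. Of the sonic hedgehog pathway, which drives the growth of the follicle into the dermis, 5 of 9 genes were called higher and none lower, with a median of 0.66. The ligand Shh had a log2 fold over VC of 1.19 and 1.21 in MXD and of 0.23 and 0.31 in N-CE, a difference of 0.93 ± 0.04. Its target Gli1 had 0.92 ± 0.24, and the lowest were the receptor component Smo with 0.20 ± 0.11 and the inhibitor Sufu with 0.34 ± 0.02. With normexp and loess the median of the list was 0.27, with 0.55 for Shh and 0.27 for Gli1.

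Of 20 measured Wnt genes, 4 were higher and 3 lower. The factors Lef1 and Tcf7 (0.86 ± 0.10) were highest, followed by the ligand Wnt5a with 0.76 ± 0.01. The lowest were the secreted inhibitors Dkk2 with -1.07 ± 0.07 and Sfrp2 with -1.01 ± 0.02. Axin2, a general target of the pathway, had -0.13 ± 0.01. Of 13 BMP genes, Bmp8a (1.06 ± 0.17), Bmp2 (0.85 ± 0.15) and the decoy receptor Bambi (0.80 ± 0.05) were called higher, and the lowest, the antagonists Grem1 and Fst, had -0.65 ± 0.19 and -0.35 ± 0.14, not called.

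Growth factors went both ways, with 4 of 11 higher and 2 lower. The ligands of the EGF receptor divided: Areg and Tgfa were higher, with 1.03 ± 0.29 and 0.87 ± 0.06, and Egf was lower, with -1.09 ± 0.21. The FGFs divided too: Fgf5, which ends the growth phase of the hair, had 0.86 ± 0.08, Fgf22 had 0.88 ± 0.02, and Fgf18, a factor of the resting follicle, had -1.08 ± 0.29. Vegfa, the angiogenic factor, had -0.39 ± 0.09 and was not called. Fgf2 was not above background in all readings on either of its probes, and neither was the eye factor Pax6 on any of its 3.

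Of 9 dermal papilla genes 1 was called higher and 2 lower, with a median of -0.43. That median depended on the processing, with -0.16 with normexp and loess, -0.69 without the VC channel and -0.18 with no filter on dim probes. Corin, a protease of the papilla, was called higher with 0.78 ± 0.03 and the Wnt inhibitor Wif1 had 0.53 ± 0.16, while Enpp2 and Crabp1 were called lower with -0.78 ± 0.20 and -0.68 ± 0.06. Among follicle stem cell genes, Cd34 (-0.94 and -1.06 in the orientations) and Col17a1 (-0.84 ± 0.04) were called lower and Foxc1 (0.60 ± 0.01) higher, next to Sox9 with 0.52 ± 0.03. Both Cd34 and Col17a1 are also made outside the follicle, by endothelial and basal epidermal cells.

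The desmosomal cadherin Dsg4, which holds together the cells of the hair shaft, had a log2 fold over VC of 1.82 and 1.99 in MXD and of 0.88 and 0.25 in N-CE. Its difference of 1.34 ± 0.57 was called, but its orientations stood at 0.94 and 1.74. Dsc2 had 1.18 ± 0.27 and was the only other member called among 14 desmosomal cadherins and plakins. The lowest of them were Dsg1a with -0.33 ± 0.02 and Dsg1b with 0.09 ± 0.55.

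Pigment genes were higher in MXD. Of 13 measured genes of melanin synthesis and transport, 9 were called higher and none lower, with a median of 0.68. The highest were the cystine transporter Slc7a11 with 1.16 ± 0.13 and the melanosomal exchanger Slc24a5 with 0.87 ± 0.01. Tyrp1, which works late in eumelanin synthesis, had a log2 fold over VC of 1.46 and 1.30 in MXD and of 0.60 and 0.48 in N-CE. Its difference was 0.84 ± 0.03, and Dct, the dopachrome tautomerase, had 0.72 ± 0.04. The transport GTPases Rab27a (-0.53 ± 0.02) and Rab38 (-0.16 ± 0.08), not called, were the lowest, and both work in other cells too. Of 7 genes of the melanocyte lineage, with a median of 0.55 (0.28 with normexp and loess), the receptors Ednrb and Kit were called higher, with 0.95 ± 0.41 and 0.88 ± 0.04, while Kitl, the ligand of Kit, had 0.07 ± 0.00 and the lineage factor Sox10 had 0.18 ± 0.05.

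The pigment factor MITF binds CATGTG. These letters stand in 8 of the 12 promoters found for 10 of the pigment genes (66.7%), against 14.2% of all promoters. They are also in 15 of 39 keratin-associated protein promoters (38.5%), so a raised share is not limited to pigment genes. The hair shaft keratin, mitotic and sarcomere promoters hold them in 11.1%, 12.0% and 7.14%. Tyrp1 (chr4:80833963-80834212, plus strand) and Dct (chr14:118052247-118052496, minus strand) are shown as the melanosomal enzymes that were called, with the letters in capitals on either strand.
Tyrp1: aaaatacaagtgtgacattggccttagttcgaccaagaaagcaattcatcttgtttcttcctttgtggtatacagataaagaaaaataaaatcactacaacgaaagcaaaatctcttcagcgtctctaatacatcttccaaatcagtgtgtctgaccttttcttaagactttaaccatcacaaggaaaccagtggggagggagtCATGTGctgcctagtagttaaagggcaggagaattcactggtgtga
Dct: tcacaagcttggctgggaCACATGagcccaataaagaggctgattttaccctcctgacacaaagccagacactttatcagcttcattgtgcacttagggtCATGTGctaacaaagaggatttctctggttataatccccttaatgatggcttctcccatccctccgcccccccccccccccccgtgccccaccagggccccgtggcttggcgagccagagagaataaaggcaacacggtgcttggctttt
Tyrp1 has 1 copy, 41 bases before its start, and Dct has 2.

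Genes of mitosis were higher in MXD in part. Of 26 measured, 25 lay above 0 and 9 were called higher, with a median of 0.59. Top2a, the topoisomerase of dividing cells, had a log2 fold over VC of 1.23 and 1.24 in MXD and of 0.43 and 0.11 in N-CE, a difference of 0.97 ± 0.23. Cdc20, which starts anaphase, had 0.84 ± 0.16. The lowest were Bub1 with -0.11 ± 0.05, whose other probe had 0.59, and Ect2 with 0.28 ± 0.08. DNA replication genes had a median of 0.24 and 0 of 24 called, between -0.08 for Gins2 and 0.61 for Tk1.

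Mitotic genes share the letters TTTGAA (cell cycle homology region) and CCAAT (bound by NF-Y). Of 25 promoters found for 23 of the genes, 19 hold TTTGAA (76.0%), against 17.9% of all promoters, and 22 hold CCAAT (88.0%), against 37.4%. Since TTTGAA is part of CTTTGAA, it was also counted outside it, in 72.0% of the mitotic and 13.6% of all promoters. The letters are not particular to mitotic genes. Of the 9 hair shaft keratin promoters, 88.9% hold TTTGAA, 44.4% hold it outside CTTTGAA and 55.6% hold CCAAT. For CCAAT the share is 58.3% in pigment, 33.3% in keratin-associated protein and 28.6% in sarcomere promoters. For TTTGAA these lists have 16.7%, 28.2% and 7.14%. Top2a (chr11:99024190-99024439, minus strand) and Cdc20 (chr4:118437344-118437593, minus strand) are shown, with both motifs in capitals on either strand.
Top2a: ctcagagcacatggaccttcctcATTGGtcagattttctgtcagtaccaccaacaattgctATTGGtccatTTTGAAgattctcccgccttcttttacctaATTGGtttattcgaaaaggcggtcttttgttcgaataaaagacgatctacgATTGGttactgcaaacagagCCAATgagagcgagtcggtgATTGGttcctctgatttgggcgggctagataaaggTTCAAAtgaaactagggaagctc
Cdc20: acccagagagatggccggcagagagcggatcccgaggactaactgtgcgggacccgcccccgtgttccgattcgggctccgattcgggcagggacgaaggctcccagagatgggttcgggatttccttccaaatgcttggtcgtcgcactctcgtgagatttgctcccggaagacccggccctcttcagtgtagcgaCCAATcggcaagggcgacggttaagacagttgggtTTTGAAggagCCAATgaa
Top2a holds 8 such matches and Cdc20 holds 3.

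**Figure D4:**
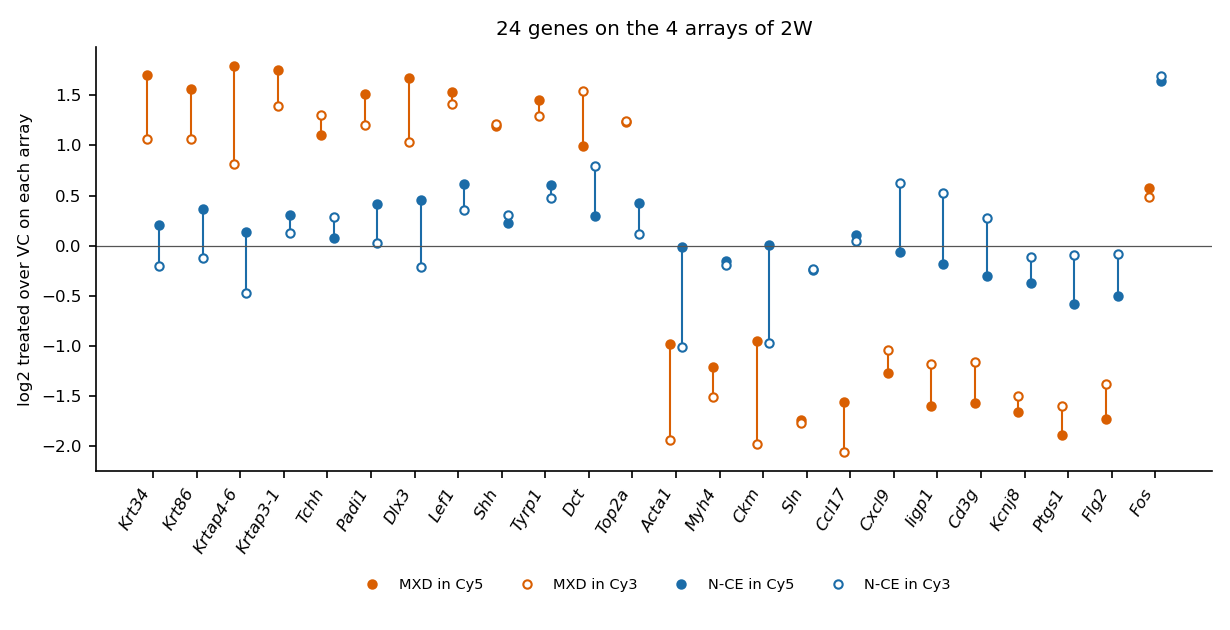
For 24 genes, the log2 fold over VC on each of the 4 arrays of 2W is plotted, with MXD in orange, N-CE in blue, filled points for the treated pool in Cy5 and open points for Cy3, and a line joining the 2 arrays of a treatment. The MXD values lie above the N-CE values in the hair, pigment and mitosis genes and below them in the others. For Acta1, with -0.98 and -1.94 in MXD and -0.02 and -1.01 in N-CE, and likewise for Ckm, the treatments separate only within a dye.

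Skeletal muscle genes were lower in MXD. Of 22 genes of the fast and general sarcomere, 20 were called lower and none higher, with a median of -1.05, that is 2.06-fold lower. All 14 genes of muscle calcium handling were called lower, with a median of -0.90, and 12 of 15 muscle energy enzymes were, with a median of -0.98. The striated muscle of these skin pieces is the panniculus carnosus or muscle taken along at dissection, and its share in each pool is not known.

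Titin (Ttn), the spring of the sarcomere, and myotilin (Myot), of the Z-disc, had the lowest values of the sarcomere list, -1.33 ± 0.22 and -1.31 ± 0.13. The 9 measured probes of Ttn lay between -1.33 and -0.54. The fast myosin Myh4 had a log2 fold over VC of -1.21 and -1.51 in MXD and of -0.15 and -0.19 in N-CE, so both MXD values lay below both N-CE values. The highest were Tpm2 with -0.54 ± 0.05 and Tnnt3 with -0.76 ± 0.19. Of 7 slow sarcomere genes, with a median of -0.44 (-0.72 with no filter on dim probes), Myoz2, Myl3 and Mybpc1 were lower and Tnni1 was called higher with 0.89 ± 0.22. Tnni1 lay at -0.09 and -0.37 without the VC channel.

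Sarcolipin (Sln), which restrains the calcium pump, had -1.74 and -1.77 over VC in MXD and -0.24 and -0.23 in N-CE. Its difference of -1.52 ± 0.03 was the lowest of the calcium genes, followed by the calcium buffer Pvalb with -1.24 ± 0.09. The highest were Cacng1 with -0.61 ± 0.02 and Casq1 with -0.73 ± 0.07. Among energy enzymes, Eno3 and Ckmt2 were lowest, both at -1.27, and creatine kinase Ckm had -0.98 ± 0.03. Gpd1 and Aldoa, which other tissues use too, were highest with -0.49 ± 0.03 and -0.52 ± 0.02. The respiratory chain shared by all cells differed less: 0 of 26 oxidative phosphorylation genes were called, with a median of -0.24 between -0.54 for Ndufa4 and 0.16 for Uqcrc1.

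Genes of muscle regeneration and denervation were lower in 5 of 10 and higher in 1, with a median of -0.84. The ubiquitin ligase Trim63, of muscle wasting, had -1.34 ± 0.12 and the perinatal myosin Myh8 had -1.28 ± 0.02. Runx1 was the member called higher, with 0.85 ± 0.14, and it is also a factor of the hair follicle. The median was -0.45 with normexp and loess. Smooth muscle genes were lower in 5 of 9, with a median of -0.78, and the lowest were Synpo2, called lower, and Lmod1 with -0.98 ± 0.01. Desmin and Synpo2 are shared with striated muscle. Smtn and Actg2 were the highest with 0.56 ± 0.05 and 0.43 ± 0.19, not called.

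The E-box CAGCTG, bound by MyoD, stands in 5 of 14 promoters found for 13 sarcomere genes (35.7%), against 16.3% of all promoters. That share is not particular to muscle genes, since 4 of 12 pigment promoters hold it too (33.3%). It is in 17.9% of the keratin-associated protein, 12.0% of the mitotic and 0.0% of the hair shaft keratin promoters. CTAAAAA, the core of the MEF2 site, is in 0 of 14 sarcomere promoters against 3.50% of all. Myl1, the fast light chain, with a difference of -1.10 ± 0.04, is shown (chr1:66945057-66945306, minus strand) by the same rule among the sarcomere genes that hold the E-box, in capitals.
Myl1: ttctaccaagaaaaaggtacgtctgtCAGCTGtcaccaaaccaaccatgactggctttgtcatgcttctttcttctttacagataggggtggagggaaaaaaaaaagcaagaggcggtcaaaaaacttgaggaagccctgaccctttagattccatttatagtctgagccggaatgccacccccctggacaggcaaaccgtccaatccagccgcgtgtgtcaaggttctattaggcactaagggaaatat
The match lies 219 bases before the start.

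Several genes tied to the action of minoxidil were lower in MXD-treated skin. Of 9 genes, namely 4 subunits of ATP-sensitive potassium channels, the sulfotransferase Sult1a1 and 4 adenosine receptors, which are not themselves targets of minoxidil, 6 were called lower and none higher, with a median of -0.76. Kcnj8, the pore subunit Kir6.1 of vascular smooth muscle, had a log2 fold over VC of -1.66 and -1.49 in MXD and of -0.37 and -0.11 in N-CE. Its difference was -1.34 ± 0.07 on the brighter probe and -0.18 on the other. Abcc9, the subunit SUR2, had -0.86 ± 0.01 and Sult1a1, the sulfotransferase, -0.85 ± 0.13. The adenosine receptor Adora3 had -1.04 ± 0.21, while Adora2a had 0.36 ± 0.03 and Abcc8 had -0.04 ± 0.80. Abcc9 and Kcnj11 are also subunits of the channel in striated muscle, and how far the muscle genes share in these values was not tested. With normexp and loess the median was -0.37, and -0.25 when MXD and N-CE were then compared without the VC channel.

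Prostaglandin genes were lower in 6 of 13 and higher in 1, with a median of -0.56. Ptgs1, the constitutive cyclooxygenase, had a log2 fold over VC of -1.89 and -1.60 in MXD and of -0.58 and -0.09 in N-CE, so a difference of -1.41 ± 0.14. The receptor Ptgfr, whose agonists lengthen lashes, had -1.24 ± 0.06. Ptgds, which makes prostaglandin D, was the 1 higher with 0.79 ± 0.06, next to the receptor Ptger4 with 0.49 ± 0.12. The median was -0.33 with normexp and loess.

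The epidermis was divided. Of 7 epidermal keratins, the suprabasal Krt10 (-1.10 ± 0.12), Krt78 (-1.01 ± 0.21) and Krt1 (-0.97 ± 0.08) were lower, and the basal Krt5 and Krt14 had 0.12 ± 0.00 and 0.06 ± 0.08. The second probe of Krt1 had 0.19, and with the median over the probes of each gene the list's median of -0.59 became -0.39. Krt80 was highest with 0.18 ± 0.00. Krt2, of the upper epidermis, was low over VC in both treatments, with -1.72 and -2.15 in MXD and -1.26 and -1.42 in N-CE, and its difference of -0.59 ± 0.18 was not called. The wound keratins Krt6a (0.69 ± 0.05) and Krt17 (0.62 ± 0.03) were higher, and both are keratins of the follicle as well.

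Of 24 genes of the cornified envelope, 12 were lower and 4 higher. The lower ones were Sprr2d, the filaggrin relatives Flg2 and Hrnr, loricrin (Lor) and 8 late cornified envelope genes of group 1. Flg2 had a log2 fold over VC of -1.73 and -1.38 in MXD and of -0.50 and -0.09 in N-CE, a difference of -1.26 ± 0.04, and Lor had -0.98 ± 0.06. The higher ones were Lce3c (1.12 ± 0.04), Sprr1b (1.05 ± 0.13), Sprr1a (0.85 ± 0.02) and involucrin (Ivl, 0.82 ± 0.12), which are known to rise in irritated epidermis. Within the small proline-rich proteins Sprr2d was the lowest of the list with -1.55 ± 0.12, while Sprr2f, not in the list, had 1.51 ± 0.25.

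Many chemokine genes were lower in MXD than in N-CE. Of 32 measured chemokines and cytokines, 18 were called lower and 1 higher, with a median of -0.69. Ccl17, which draws T cells into skin, had a log2 fold over VC of -1.55 and -2.06 in MXD and of 0.10 and 0.05 in N-CE, so a difference of -1.88 ± 0.32. That difference was -0.98 with normexp and loess. Of the chemokines induced by interferon, Cxcl9 had -1.44 ± 0.32 and Cxcl10 had -1.30 ± 0.20. Cxcl10 stood at -0.38 and -0.97 over VC in MXD and at 0.78 and 0.48 in N-CE, on opposite sides of VC. The keratinocyte chemokine Cxcl14 was the member called higher, with 0.64 ± 0.01, followed by Cxcl12 with 0.19 ± 0.07. Il1b and Tnf had -0.25 ± 0.23 and -0.31 ± 0.47 and were not called.

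Interferon response genes were lower in 9 of 15 and higher in none, with a median of -0.68. Iigp1, a GTPase of the defence against intracellular parasites, had -1.59 and -1.17 over VC in MXD and -0.18 and 0.53 in N-CE, a difference of -1.56 ± 0.20. Gbp3, a guanylate-binding protein, had -1.31 ± 0.18. Irf7, a factor of the interferon response, was highest with 0.03 ± 0.20. The median was -0.39 with normexp and loess. Antigen presentation genes were lower in 7 of 14, with a median of -0.65, from -0.92 ± 0.18 for B2m and -0.88 ± 0.12 for H2-DMa to -0.47 ± 0.05 for Tap2 and -0.30 ± 0.01 for Tapbp.

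Of 9 measured T and NK cell genes, 4 were lower, with a median of -0.74 (-0.33 with normexp and loess). Cd3g and Cd3d, of the T cell receptor complex, had -1.35 ± 0.12 and -1.14 ± 0.18. Cd3e, of the same complex, had -0.17 ± 0.08, and Cd4 was highest with 0.74 ± 0.36, not called, before Lck with -0.06 ± 0.31. The list therefore did not move as 1 block. Of 12 macrophage genes, Cd163, Lyz2 and F13a1 were lower, at -0.77 ± 0.24, -0.71 ± 0.03 and -0.68 ± 0.13, and Cd68 had -0.08 ± 0.10 and Itgam -0.12 ± 0.03. Neutrophil and acute phase genes had a median of -0.01, with 1 of 8 called, Saa3 at 1.02 ± 0.20.

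Some genes of the circadian clock were lower in MXD. Of 13 clock genes, Dbp (-1.04 ± 0.06), Hlf, Nr1d1, Nr1d2 and Tef (-0.77 ± 0.11) were called lower and none higher. Arntl, whose rhythm runs against theirs, had 0.17 ± 0.03 and Per1 had -0.06 ± 0.05. The hour of sampling of each group is not given in the sources used here, and its part in these values was not tested. The median of -0.60 became -0.40 with normexp and loess.

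Immediate early genes, which answer within minutes to stress or handling, had a median of 0.04 but a wide range. Nr4a1 (-1.24 ± 0.06), Fos (-1.14 ± 0.10), Dusp1 (-1.10 ± 0.01), Fosb (-0.95 ± 0.02) and Atf3 (-0.93 ± 0.13) were called lower. Fos was above VC in both treatments, with 0.57 and 0.48 in MXD and 1.64 and 1.69 in N-CE. Fosl1 was called higher at 1.52 ± 1.26, from 0.63 in one orientation and 2.41 in the other, so its size is not determined. Egr1 and Jun, of the same class, had 0.39 ± 0.04 and 0.14 ± 0.00.

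Lipid and stromal genes were called lower in part. Of 9 sebaceous genes, 5 were lower, with Awat2, a wax synthase, at -1.47 ± 0.37 and Far2 at -1.03 ± 0.17, and the highest were Soat1 with 0.17 ± 0.11 and Elovl3 with -0.06 ± 0.02. Of 14 adipocyte genes, Cidea, Cfd and Pparg were lower, at -1.12 ± 0.10, -0.72 ± 0.08 and -0.65 ± 0.01, whereas leptin (Lep) and Lipe had 0.17 ± 0.02 and 0.18 ± 0.00. Of 15 collagens, 6 were lower, with Col7a1 at -0.91 ± 0.03 and Col17a1 at -0.84 ± 0.04, and Col12a1 and Col4a1 were highest with 0.43 ± 0.06 and 0.27 ± 0.01. Endothelial genes had a median of -0.48 with 3 of 12 lower, from Cldn5 and Emcn, both called lower, to Tie1 and Pecam1. Schwann cell genes had a median of -0.47 with 2 of 7 lower, among them the myelin gene Pmp22, and S100b and Mag were highest. Cholesterol synthesis had a median of -0.06, and Insig1, which holds back the pathway, was the 1 of 17 called, at 0.78 ± 0.10.

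Over all probes, ranked by the smaller difference of both orientations, the highest in MXD were Idi2, Cer1, AK038254, Gm11938, Slc24a4, Gm11559, Syt4, Sprr2f, Krtap4-6 and Krtap3-1. Idi2, an isomerase of the mevalonate pathway, had 1.61 ± 0.04, or 3.05-fold, and the BMP and Wnt antagonist Cer1 had 1.57 ± 0.05. Gm11938 and Gm11559, with 1.41 ± 0.02 and 1.37 ± 0.00, lie among the keratin-associated proteins of chromosome 11. With normexp and loess, Idi2 had 1.01, Cer1 had 0.55 and the exchanger Slc24a4 had 0.47. The difference of Slc24a4 was 1.63 ± 0.35, but only 0.32 and 0.97 without the VC channel. Its VC channel differed by -1.07 and -0.93 between the arrays.

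The lowest in MXD were Pon1, 8430408G22Rik, C130079G13Rik, Bcl2l15, Skint11, Slc26a7, Serpinb10, Ccl17, Mucl1 and Pkib. Pon1, the paraoxonase carried on lipoproteins, had a log2 fold over VC of -1.94 and -1.72 in MXD and of -0.06 and 0.52 in N-CE, so a difference of -2.06 ± 0.25, that is 4.16-fold lower. Bcl2l15, of the Bcl-2 family, had -1.86 ± 0.17 and the anion exchanger Slc26a7 -1.84 ± 0.22. Skint11, of a family expressed in epidermis and thymus, had -1.80 ± 0.11. With normexp and loess, Pon1 had -1.81, Bcl2l15 -1.36, Slc26a7 -1.06 and Skint11 -1.29.

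Some genes were above background in only 1 treatment on both of its arrays. Only those whose signal lay above the limit set by the other treatment's arrays were counted. They were 302 probes in MXD and 337 in N-CE, and for 2 and 48 of them the signal was over 1.5-fold above that limit. The difference within the arrays did not bear out most of these bounds. Of the 48 probes bounded as higher in N-CE, 16 were lower in MXD in both orientations, 7 were higher in MXD in both and 25 differed between the orientations. No gene is therefore named from the bounds.

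The same difference at the other weeks is given beside it. At 1W, 1108 of 23595 probes (4.7%) were higher and 887 (3.76%) lower in MXD than in N-CE. The 3W arrays gave 64 of 22198 probes higher (0.288%) and 83 lower (0.374%). Of 763 probes higher at 2W and measured at 1W, 404 were higher at 1W too and 1 was lower. Of 1826 probes lower at 2W, 417 were lower at 1W and 8 higher. At 3W the corresponding counts were 13 and 5 of 864, and 7 and 21 of 1761. Each week was 1 slide and 1 set of pools, so week, slide and mice cannot be told apart.

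The hair lists stood highest at 1W. The keratin-associated proteins had a median of 3.17 in the 1W arrays, 1.10 in those of 2W and 0.20 in those of 3W, and the hair shaft keratins 2.93, 0.98 and 0.18. Melanin synthesis had 2.49, 0.68 and 0.15, and mitosis 1.40, 0.59 and 0.08. The list medians of each treatment over VC at 1W are not given here, so these values do not show which treatment moved. The paper lists keratin and melanin biosynthesis among the functions up with MXD and also among those down with N-CE at 1W. It lists mitosis among those down with N-CE at 1W. The muscle lists were lowest at 2W: the sarcomere genes had -0.58, -1.05 and -0.09 and the calcium handling genes -0.57, -0.90 and -0.03. Chemokines and cytokines had -0.19, -0.69 and 0.13. No difference between weeks could be tested.

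**Figure D5:**
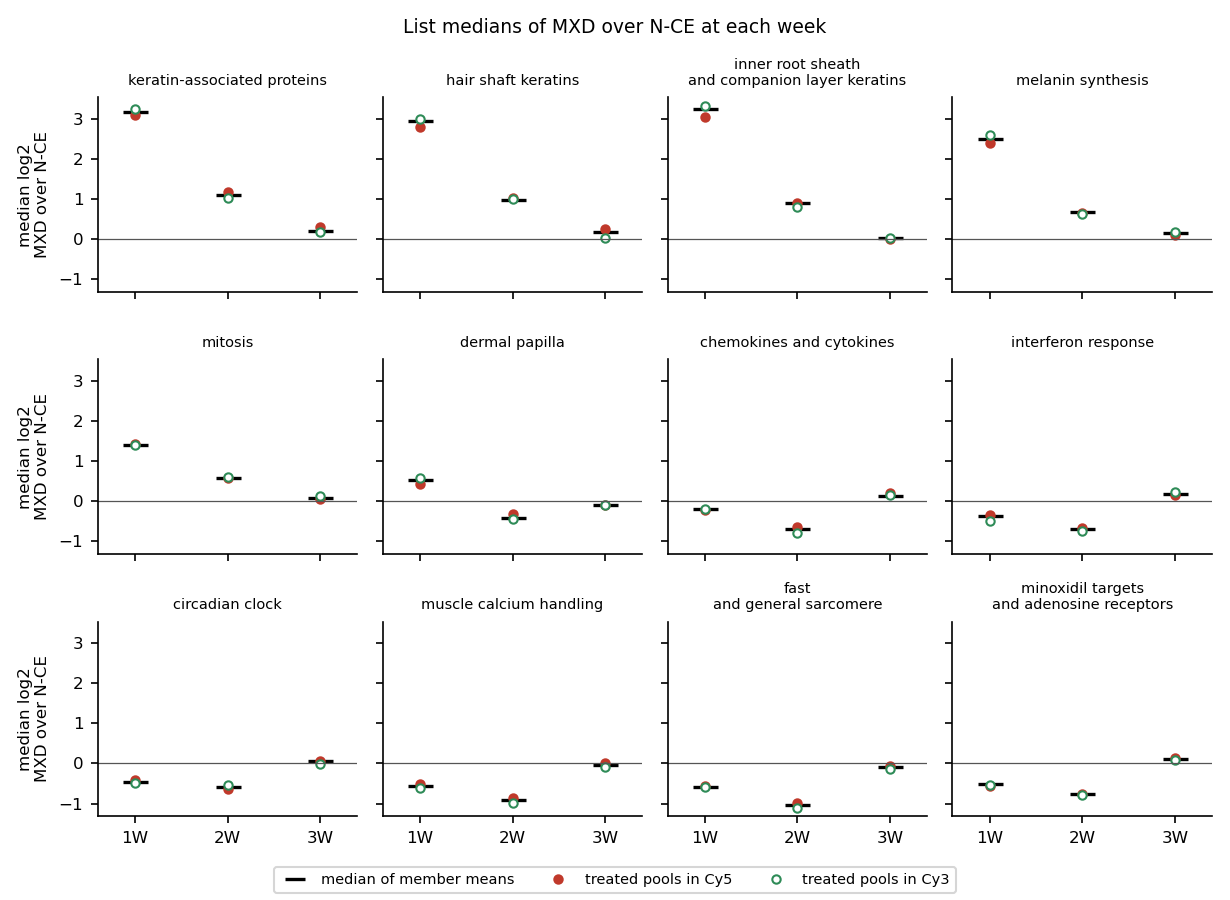
For 12 lists, the median log2 difference of MXD and N-CE is plotted at 1W, 2W and 3W, with a black bar for the median of the members' means and points for each dye orientation. The hair, pigment and mitosis lists are highest at 1W (3.17 for the keratin-associated proteins), the muscle, immune and clock lists and the list of channel subunits and adenosine receptors are lowest at 2W, and all lie near 0 at 3W. The values of each treatment over VC are not shown.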

How the data were processed

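Back skin RNA of 1 pool of 6 mice per group was measured on 2-colour Agilent mouse arrays, whose probe positions are given on mm9. The authors scanned the arrays and extracted them with Agilent Feature Extraction, and the deposited files hold processed signal intensities per spot and dye, background-subtracted and dye-normalized by that software, and its log10 ratio of red over green. The software version is 11.0.1.1 per the labels and 12.0.3.1 per the file headers. The error and p-value columns of the software and the value table of the series were not used.

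Here log2 ratios of processed signals were turned by dye so that the treated pool stands over VC, control and outlier spots were left out, and spots of a probe were averaged. Log2 MXD over VC minus log2 N-CE over VC was taken per dye orientation and averaged. Probes had to be well above background in all 8 readings, in both channels of 4 arrays. A dye swap of the same RNA counts as 1 replicate, so no test was run, and the number of arrays limits the precision. A gene is represented by its brightest measured probe. Genes are named as the 10 highest and 10 lowest called probes, the highest and lowest members of each list, and Lef1, Dsg4, Fgf2, Pax6, Fos and Krt2. Some list members that this rule names are not reported here. The members and the 47 lists, with 640 of 713 genes measured, were chosen with earlier results of these data known. Alternatives were normexp (offset 50) with loess, the software's ratio, treated channels compared directly, other filters and folds, and each orientation alone. Python 3.11.15, pandas 2.3.3, R 4.3.3 and limma 3.58.1 were used, and the calls were tested on simulated data. Promoters are from RefSeq on GRCm38.p6.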

Additional observations from a re-analysis of the deposited data

Results flagged for a closer look

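Some differences of MXD and N-CE had opposite directions at different weeks, in both dye orientations of each week. Each week was 1 slide and 1 set of pools, and no difference between weeks was tested. The dermal papilla list had a median of 0.52 over 7 measured genes at 1W and of -0.43 over 9 at 2W, so the members differ in part, and the 2W value was -0.16 with normexp and loess. Myog, the myogenic factor, had 1.03 at 1W and -1.05 at 2W. Chrna1, the acetylcholine receptor subunit of muscle, had 0.63 at 1W and -0.95 at 2W. Sln had 1.18 at 1W, -1.52 at 2W and 0.62 at 3W. Sprr2d had 2.84 at 1W and -1.55 at 2W. At 3W, Fosb had 0.95, against -0.95 at 2W, and Mucl1 had 0.88, against -1.69 at 2W. Ccl20 had 0.91 at 3W and -0.75 at 2W, and Hamp2, a hepcidin gene, had 0.96 at 3W and -1.20 at 2W. Not all of these values came with MXD. Fosb at 2W had a mean log2 fold over VC of 0.02 in MXD and 0.97 in N-CE. Hamp2 at 3W had -0.12 in MXD and -1.08 in N-CE. By contrast, Sprr2d at 1W had 3.11 in MXD and 0.27 in N-CE, and Myog, Chrna1 and Sln at 1W also lay farther from VC in MXD.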

How the results depend on the processing

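No paired analysis was possible because each group is 1 pool. Counts of probes higher and lower in MXD were 953 and 1838. They were 421 and 1210 with normexp and loess, 104 and 389 past 2-fold, and 1583 and 3727 for a mean above 1.5-fold or below 0.75-fold. The higher count was 1455 with probes above background in at least 1 of 8 readings, 1909 with no filter, and 1540 to 2232 in 1 orientation alone. Of 36 lists with a median farther than 0.29 from 0, normexp and loess moved 9 by over 1.5 times. These were sonic hedgehog (0.66 to 0.27), melanocyte lineage (0.55 to 0.28), dermal papilla (-0.43 to -0.16), muscle regeneration (-0.84 to -0.45), T and NK cells (-0.74 to -0.33), interferon response (-0.68 to -0.39), circadian clock (-0.60 to -0.40), minoxidil targets with adenosine receptors (-0.76 to -0.37) and prostaglandins (-0.56 to -0.33). Without the VC channel 3 moved so far, and 8 did after normexp, loess and Aquantile. With normexp and loess they were 0.96 for hair shaft keratins, 0.58 for melanin synthesis, 0.52 for mitosis and -0.54 for chemokines. Without the VC channel they were 0.92 for hair shaft keratins, 0.92 for keratin-associated proteins and 0.72 for mitosis. The same after normexp, loess and Aquantile gave 1.00, 0.92 and 0.66, with 0.64 for melanin and -0.96 for the sarcomere. In 1 orientation alone, hair shaft keratins had 1.01 in each, melanin 0.63 to 0.66 and mitosis 0.59 to 0.60, and mitosis had 0.60 as the median over probes. These 36 of 47 lists kept their sign under the 10 settings run on lists. They were picked by the size of their main median, which makes a change of sign less likely. The settings are not independent: the software's ratio gave the same values as the main setting, and each orientation alone is part of the main mean. The causes of the moves between settings were not tested. Signal over background limits the dim genes, and 1 pool per group limits every value to these pools.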

Other observations

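Histone genes of the replication-dependent clusters had a median difference of 0.60, and 4 of 25 were called higher in MXD, with the linker histone Hist1h1b highest at 1.11. The median was not stable: it was 0.35 with the treated pools in Cy5 alone and 0.64 in Cy3 alone, and 0.20 without the VC channel. Among hypoxia genes, Bnip3 and Ankrd37 were lower at -1.20 and -1.05 and Ldha at -0.64, while adrenomedullin (Adm), a vasodilator, was higher at 0.95. Of 11 iron genes, Hamp2 (-1.20), Hfe2 (-0.95) and ferritin Fth1 (-0.74) were lower, and the iron exporter Slc40a1 was higher at 0.91. Of 6 mast cell genes, with a median of -0.30 (-0.16 without the VC channel after normexp and loess), the chymase Cma1 was lower at -0.62, and Kit, shared with melanocytes, was higher. Of 3 erythrocyte genes, Slc4a1 was higher at 0.73 and Hba-a1 had 0.02.

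Spp1, the secreted phosphoprotein osteopontin, had 1.64 at 1W and -1.18 at 2W, and Snai3, a zinc finger factor, had -1.05 at 1W and 0.65 at 2W. Over VC at 1W, Spp1 had 2.15 in MXD and 0.52 in N-CE, and Snai3 had -0.27 in MXD and 0.79 in N-CE. Neither difference was tested.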
